A study of Rattus norvegicus with 6 samples.

Results

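Id2, Id3 and Hes1 encode helix-loop-helix proteins that hold back differentiation, and their RNA was measured here before and after differentiation of cultured rat oligodendrocyte precursors. They were chosen by identifier, as ENSRNOG00000007237 (Id2), ENSRNOG00000026124 (Id3) and ENSRNOG00000001720 (Hes1), and are 3 of the 20174 rat Ensembl genes that each array carries with 1 spot each. The array files hold identifiers only, and the pairing of these 3 with gene names comes with the choice of members and not from the files. The study measured total RNA on 6 single-colour Cy5 arrays: 3 of precursors grown in Raff medium before differentiation, at day 0, and 3 of such cultures after a change of growth factors, at day 3. In each group 2 arrays carry a number in their title and 1 is unnumbered. Strain, age and purity of the cultures are not stated in the labels, and markers of precursors, oligodendrocytes or other cells could not be checked, because no identifier is paired with a symbol. Nothing in the labels ties each array to a culture of its own, so every p-value rests on an array-to-array spread that may be purely technical.

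Id proteins carry a helix-loop-helix domain without the basic stretch that binds DNA. They pair with E proteins and with basic helix-loop-helix activators such as Olig2 and keep them off DNA. Transcription of Id genes is a direct answer to bone morphogenetic proteins (BMPs), acting through Smad1 and Smad5, and BMPs turn precursors away from the oligodendrocyte fate. Hes1 does bind DNA and represses its targets. It is a classical target of Notch signalling, switched on by the factor RBPJ together with the Notch intracellular domain, and Notch signalling keeps precursors from maturing. The comparison of day 0 with day 3 asks whether the RNA of these factors differs before and after differentiation.

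The starts of the genes are shown first, since BMP and Notch signalling are known to act on transcription. All 3 genes were found by symbol among the 33469 promoter windows taken from RefSeq (build GRCr8), each from 250 bases before to 50 bases after the start of a gene and read along the gene's strand. Capitals mark the letters TGGGAA, the core of the RBPJ site, and CANNTG, the E box bound by basic helix-loop-helix activators.
Hes1, chr11:84212996-84213295, minus strand: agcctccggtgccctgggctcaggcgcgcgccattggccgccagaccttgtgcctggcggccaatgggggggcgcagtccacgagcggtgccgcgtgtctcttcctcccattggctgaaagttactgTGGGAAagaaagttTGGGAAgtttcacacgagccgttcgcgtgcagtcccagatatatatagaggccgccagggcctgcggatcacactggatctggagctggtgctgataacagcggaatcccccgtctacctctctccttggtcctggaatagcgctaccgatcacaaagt
Id2, chr6:47470946-47471245, minus strand: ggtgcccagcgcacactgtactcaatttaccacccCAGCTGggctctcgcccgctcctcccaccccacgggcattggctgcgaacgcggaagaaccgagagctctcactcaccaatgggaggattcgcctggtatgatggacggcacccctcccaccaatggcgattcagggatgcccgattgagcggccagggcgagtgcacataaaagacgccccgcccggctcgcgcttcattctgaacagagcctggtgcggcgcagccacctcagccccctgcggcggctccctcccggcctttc
Id3, chr5:153656041-153656340, plus strand: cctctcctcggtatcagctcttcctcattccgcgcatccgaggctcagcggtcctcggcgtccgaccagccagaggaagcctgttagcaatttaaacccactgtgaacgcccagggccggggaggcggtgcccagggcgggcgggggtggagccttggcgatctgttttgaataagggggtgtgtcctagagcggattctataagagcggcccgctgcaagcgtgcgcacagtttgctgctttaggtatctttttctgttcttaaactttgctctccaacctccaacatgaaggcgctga

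Both TGGGAA matches lay in the Hes1 window, starting 123 and 109 bases before the gene start, and the Id2 and Id3 windows held none. These letters, searched on both strands, occur in 25.7% of all windows. The Hes1 window also held 4 matches of the N box CACNAG, the letters bound by Hes proteins themselves, against 1 in Id2 and 0 in Id3, and 43.1% of all windows hold at least 1. The E box occurred once, in Id2, 215 bases before the start, and is in 72.1% of all windows. The Smad binding element CAGAC matched once, in Hes1 (50.1% of all windows), and the GC-rich Smad element GGCGCC matched in none of the 3 (11% of all windows). A match is a description of these letters and not a binding site, and a window without a match says only that the letters are not in it.

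Values of 3 kinds are used, because they do not give the same answer for these genes. The first, called background-corrected, takes the spot signal and the background median deposited beside it through normexp (limma's background model) with an offset of 50, followed by quantile normalisation between arrays. The second, called the signal itself, leaves the background column out. The third is the authors' processed table. Each of its columns is a straight line on the spot signals of that array: the trimmed mean of the blank spots is subtracted, and a factor puts the median of the listed genes at 25. The authors' processed values thus do not use the background column either. Over all gene spots the median background amounted to between 65.2% and 78.7% of the spot signal, and its Spearman correlation with the signal, a description across genes, was 0.92 to 0.97 on the 6 arrays. Detection limits, the mean plus 2 SD of the trimmed blank spots, lay between 13.9 and 16.9 scanner units.

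Id2, whose product delays the maturation of cultured precursors when it is raised, was bright on every array. Its spot signal at day 0 was 2758 on the array numbered 1, 1941 on number 2 and 2664 on the unnumbered one, and at day 3 it was 1698, 937 and 2049 in the same order. The means were 2455 ± 447 before differentiation and 1561 ± 568 after it (SD, n = 3). Each day 3 array was dimmer than the day 0 array of the same number, but the groups overlapped, as the unnumbered day 3 array was brighter than day 0 number 2. The median gene signal was lower on each day 3 array too. It was 34.6, 31.7 and 38.9 at day 0 and 26.4, 29.3 and 35.8 at day 3, in the same order. In the authors' processed values Id2 stood at 1607, 914 and 1463 at day 0 and at 1133, 649 and 1317 at day 3.

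Id3, a factor that BMPs induce in many cell types, was brighter still and tended the other way. Its signal was 8364, 6479 and 4981 at day 0 and 9574, 6791 and 7424 at day 3, in the order number 1, number 2 and unnumbered. The means were 6608 ± 1695 and 7929 ± 1459 (SD, n = 3), and the groups overlapped. Each day 3 array was brighter than the day 0 array of the same number. In the authors' processed values Id3 was 4889, 3068 and 2743 at day 0 and 6429, 4765 and 4796 at day 3, where the highest day 0 array still lay above the lower 2 of day 3. By rank within the array, which no scaling alters, the groups were apart: 98.4% to 98.6% of gene spots were dimmer than Id3 at day 0 and 99.1% to 99.3% at day 3. The ranks of Id2 and Hes1 overlapped between the days. Quantile normalisation keeps these ranks, so the separation of Id3 is the same as in the quantile-normalised signal itself. There 19.3% of all genes tested did not overlap either.

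Hes1, the Notch target, gave a weak signal, yet one near the middle of all gene spots. At day 0, 44.8% to 55.0% of gene spots were dimmer than Hes1, and at day 3 52.4% to 59.6%. Its signal was 45.0, 29.2 and 31.1 at day 0 and 34.4, 48.0 and 39.8 at day 3. These signals were 1.72 to 2.94 times the detection limit at day 0 and 2.43 to 3.07 times at day 3, so the gene was above the limit on all 6 arrays but never far above it. The means of 35.1 ± 8.62 and 40.7 ± 6.86 (SD, n = 3) differed by less than the spread. The array numbered 1 was brighter at day 0 than at day 3, and the other 2 pairs ran the opposite way. After the blank spots were subtracted and scaled by the authors, Hes1 was 18.2, 6.86 and 8.66 at day 0 and 14.7, 23.5 and 16.1 at day 3.

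**Figure D1:**
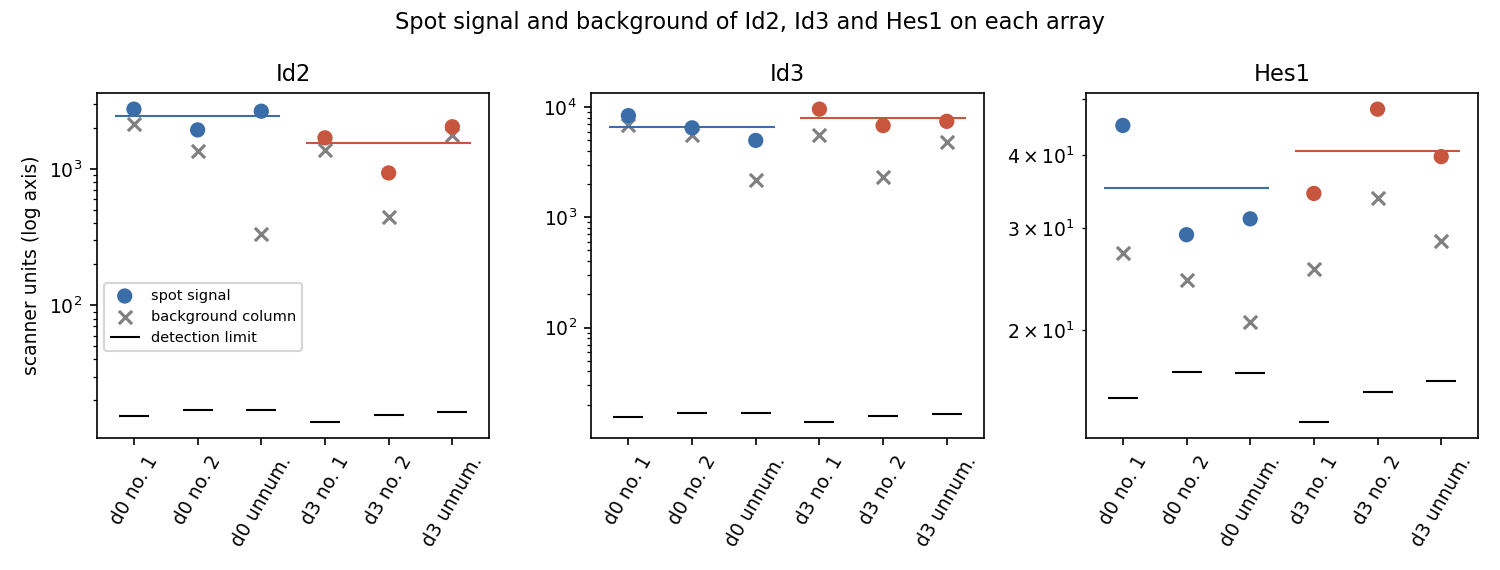
Spot signal (points, blue at day 0 and red at day 3), deposited background (crosses) and detection limit (black dashes) of Id2, Id3 and Hes1 on each of the 6 arrays, in scanner units on log axes that differ between the panels; coloured lines are group means. Before any scaling between arrays, Id2 is lower at day 3 within each number and Id3 higher, while Hes1, at 29.2 to 48.0 units, lies close to the detection limit.

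The test across all genes was limma over the 6 arrays, with p-values adjusted by Benjamini-Hochberg over every gene above the detection limit on all arrays of at least 1 group. All 3 genes passed that filter at both days. With the background-corrected values none of the 3 was called, against 0.0324% of the 15437 genes tested, and 1 of the 3 (Id3) had an unadjusted limma p under 0.05, as 7.30% of genes did. With the signal itself Id3 was called, 1 of 3 where 1.04% of genes were. In the authors' processed values none was called, where 2.40% of the 14431 genes listed on all arrays were, and none had an unadjusted limma p under 0.05, as 10.7% of genes did. The values of day 0 and day 3 did not overlap for 1 of the 3 genes, Id3, with the background-corrected values (13.2% of all genes). The same gene was the 1 without overlap when the background column was left out (19.3% of all genes). In the authors' processed values the days overlapped for all 3 (13.9% of all genes did not overlap).

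Id3 rose in the signal itself, by 0.79 on the log2 scale or 1.73-fold (SE 0.094, 95% interval 0.55 to 1.03, limma adjusted p = 0.0443). With the numbers of the arrays as a replicate block the adjusted p was 0.0470 (limma). The background-corrected difference was larger and less precise, 1.67 (SE 0.45, interval 0.50 to 2.84, limma adjusted p = 0.521). In the authors' processed values it was 0.61 (SE 0.37, interval -0.18 to 1.40, limma adjusted p = 0.704). The call in the signal itself ended when any 1 of the 6 arrays was left out, with limma adjusted p-values of 0.0847 to 0.158 at log2 differences of 0.73 to 0.86. It also depended on the scaling, chosen after seeing the data: the difference was 0.28 with no scaling, 0.36 when arrays were set to a common median and 0.50 when set to a common 75th percentile (limma adjusted p = 0.618, 0.632 and 0.224). An exact two-sided permutation test over the arrays gave p = 0.1 for Id3 on both of the quantile-normalised scales, the smallest that 3 arrays against 3 allow, and p = 0.3 with the authors' processed values.

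Id2 was lower at day 3 with all 3 kinds of values, and the difference did not pass the test with any of them. It was -0.94 on the log2 scale with the background-corrected values (SE 0.59, interval -2.47 to 0.59, limma adjusted p = 0.862). With the signal itself it was -0.41 (SE 0.30, interval -1.17 to 0.36, limma adjusted p = 0.715), that is 1.33-fold higher at day 0, and with the authors' processed values -0.38 (SE 0.40, interval -1.24 to 0.47, limma adjusted p = 0.974). These intervals still hold a fall by more than 1 log2 unit and no change. Other scalings of the signal itself were chosen after seeing the data. The Id2 difference was then -0.69 with no scaling, -0.61 with a common median and -0.47 with a common 75th percentile (limma adjusted p = 0.354, 0.442 and 0.282). The replicate block narrowed the interval in the signal itself to -0.64 to -0.17 without a call (limma adjusted p = 0.135). No label states the pairing that this block assumes.

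Hes1 differed by 0.076 on the log2 scale with the background-corrected values (SE 0.063, interval -0.086 to 0.24, limma adjusted p = 0.915) and by 0.19 in the signal itself (SE 0.10, interval -0.069 to 0.45, limma adjusted p = 0.549). The offset of 50 is larger than its whole signal, so both scales understate any change of this gene. Without an offset, in the authors' processed values, the difference was 0.79 or 1.73-fold (SE 0.42, interval -0.12 to 1.69, limma adjusted p = 0.598). That last interval holds no change and a rise by 1 log2 unit, but no fall of that size.

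**Figure D2:**
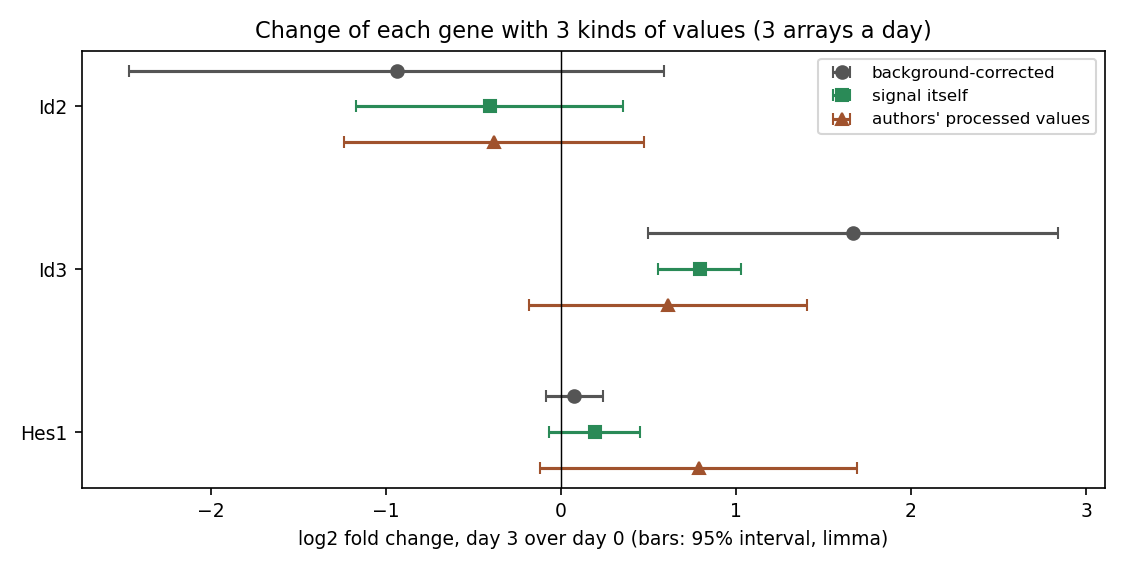
Log2 fold change of day 3 over day 0 for each gene with the background-corrected values, the signal itself and the authors' processed values; bars are 95% intervals from limma with 3 arrays a day. The intervals of Id2 and Hes1 include 0 with each kind of values, and that of Id3 lies above 0 on all scales but the authors' own.

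The deposited background at these spots varied widely between arrays. At the Id2 spot it came to 336 units beside a signal of 2664, or 12.6%, on the day 0 array without a number, and to 77.8% and 69.9% on day 0 number 1 and number 2. At day 3 it was 81.3%, 47.1% and 87.1% on number 1, number 2 and the unnumbered array. The background-corrected difference of Id2 was uneven as well: -0.59 and 0.19 for the arrays numbered 1 and 2, and -2.42 for the unnumbered pair. Without the unnumbered day 0 array it was -0.35. In the signal itself the 3 differences were -0.28, -0.58 and -0.36.

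At the Id3 spot the background was 82.2%, 85.4% and 43.8% of the signal at day 0 and 58.5%, 34.5% and 64.3% at day 3. The background itself averaged 4863 ± 2415 scanner units on the day 0 arrays and 4240 ± 1696 on those of day 3 (SD, n = 3). The background-corrected difference of Id3 was 1.59 and 2.87 for the arrays numbered 1 and 2 and 0.55 for the unnumbered pair. In the signal itself the differences were 0.76, 0.89 and 0.73, and in the authors' processed values 0.39, 0.64 and 0.81. Each pair therefore ran upwards on all 3 scales, with sizes that lay closest together in the signal itself. At the Hes1 spot the background took 60.4% to 83.6% of the signal.

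**Figure D3:**
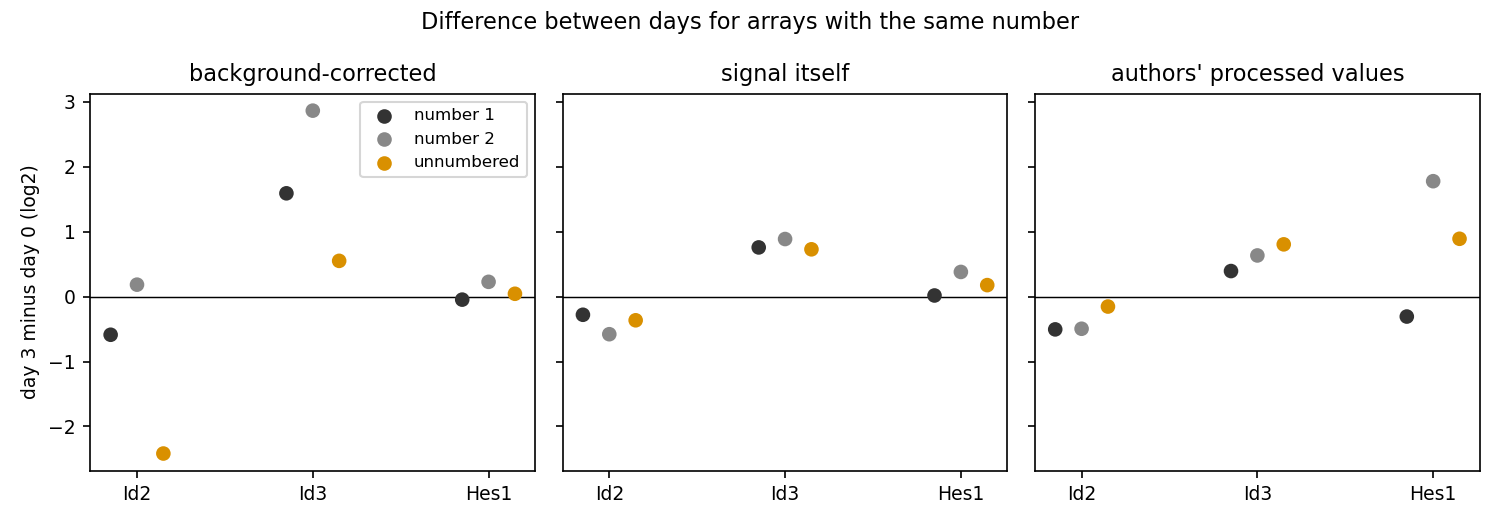
Day 3 minus day 0 (log2) for arrays with the same number in their titles and for the unnumbered pair, by gene and kind of values. Id3 is above 0 in each pair on each scale, and the Id2 difference of the unnumbered pair reaches -2.42 only where the background column is used.

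Whether the genes changed by unlike amounts was asked first with ratios of spot signals within each array, where scaling between arrays does not enter. The ratio of the Id3 to the Id2 spot signal was 3.03, 3.34 and 1.87 at day 0 and 5.64, 7.24 and 3.62 at day 3. Every day 3 array lay above every day 0 array, and the geometric mean of the ratio was 1.99-fold higher at day 3 (exact two-sided permutation p = 0.1, the smallest possible, 0.15 after adjustment over the 3 ratios). The ratio is of 2 different spots, so its level says nothing of which RNA is more abundant, only its change does. In the authors' processed values the ratio changed 1.99-fold as well. The share of all pairs of genes whose ratio is apart between the days was not computed. It is therefore unknown whether such a separation is unusual, here or for Hes1 to Id2 below.

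The ratio of Hes1 to Id2 was also higher on each day 3 array, 0.0194 to 0.0512 against 0.0117 to 0.0163 at day 0 (exact permutation p = 0.1, adjusted p = 0.15), and the array day 3 number 2, where Id2 was lowest and Hes1 highest, stood out with 0.0512. The ratio of Hes1 to Id3 overlapped between the days (exact permutation p = 0.9). Spot signals include the blank level, whose trimmed mean was 12.5 to 15.4 units, a large part of the Hes1 signal of 29.2 to 48.0. The authors' processed values subtract it. There the geometric mean of Hes1 to Id2 changed 2.25-fold, against 1.92-fold in the spot signals. That of Hes1 to Id3 changed 1.13-fold, against 0.965-fold. With the background-corrected log2 values the differences between the changes were -2.61 for Id2 minus Id3, -1.02 for Id2 minus Hes1 and 1.59 for Id3 minus Hes1 (exact permutation p = 0.1, 0.2 and 0.1, adjusted p = 0.15, 0.2 and 0.15 over the 3 pairs). The sign of the last was the opposite in the authors' processed values, -0.18. The background-corrected values and the signal itself carry the offset of 50, which understates any change of Hes1. The ratios of spot signals and the authors' processed values carry none. With an offset of 16 the background-corrected differences were -2.68, -1.12 and 1.57 (exact permutation p = 0.1, 0.2 and 0.1). Whether the offset caused the change of sign was not tested. Unlike the ratios, the background-corrected differences also depend on the quantile normalisation. With a common median instead they were -2.43, -1.32 and 1.11 (exact permutation p = 0.1, 0.1 and 0.2). In the signal itself they were -1.20, -0.60 and 0.60 after quantile normalisation (exact permutation p = 0.1, 0.3 and 0.1). Without scaling the signal itself gave -0.97, -0.78 and 0.18 (exact permutation p = 0.1, 0.1 and 0.5). In a culture measured in bulk, more or fewer cells that hold an RNA and more or less of it per cell cannot be told apart.

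The place of the 3 genes among all genes tested depended on the kind of values. With the background-corrected values 0.65% of genes differed by more than Id3 in either direction, 3.1% by more than Id2 and 48.9% by more than Hes1. With the signal itself these shares were 3.76%, 13.0% and 30.3%, and with the authors' processed values 19.9%, 36.4% and 13.3%, where Hes1 and not Id3 had the most extreme difference of the 3. The median difference of all genes was 0.0014 with the background-corrected values, -0.0042 with the signal itself and -0.0069 with the authors' processed values. The spread of Id2 within a day was wide on the first 2 scales: its pooled SD was 0.80 after background correction and 0.41 in the signal itself, where the median gene had 0.13 and 0.14. Id3 had 0.61 with the background-corrected values but 0.12 with the signal itself, and Hes1 0.079 and 0.14. The pooled SD in the authors' processed values was 0.49 for Id2, 0.36 for Id3 and 0.58 for Hes1, where the median gene had 0.46.

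**Figure D4:**
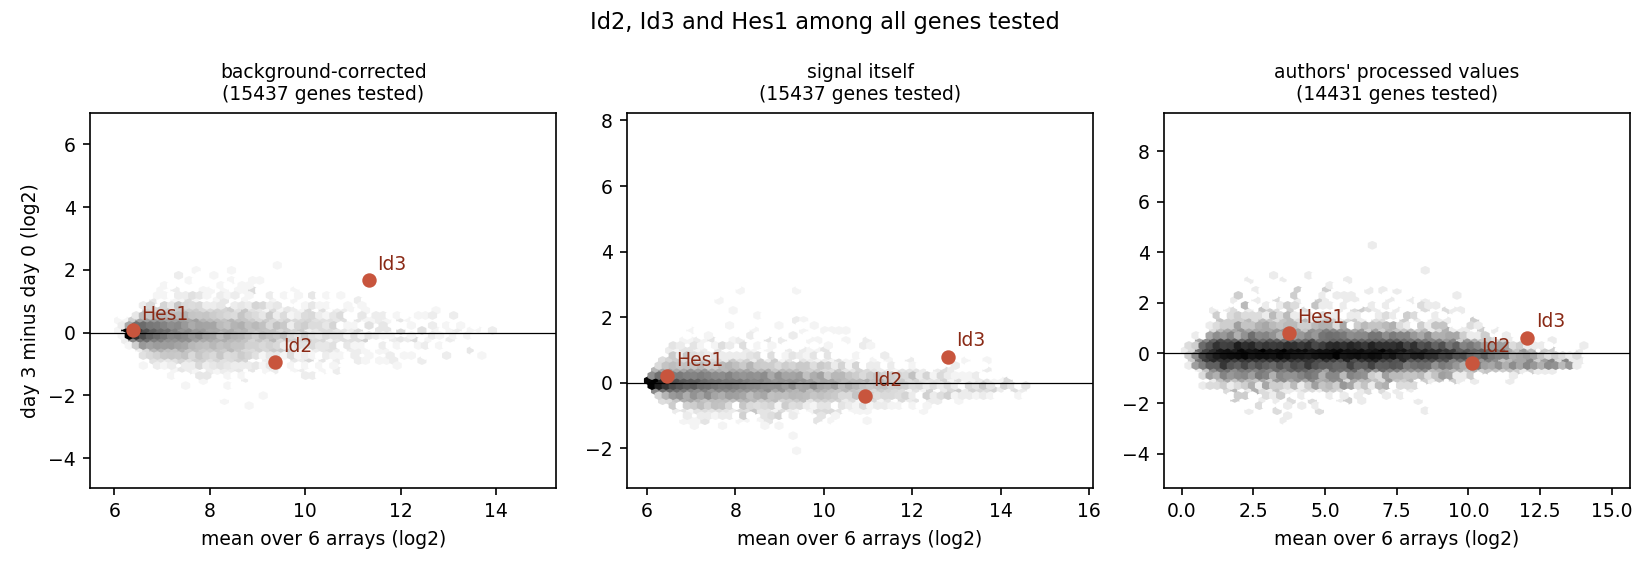
Day 3 minus day 0 against the mean over the 6 arrays (both log2) for all genes tested, with grey shading for the number of genes on a log scale and the 3 genes in red. Id3 stands above the bulk of equally bright genes in the left and middle panels, and Hes1 sits near 0 there at a low mean.

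The direction of each gene was the same in every one of the 37 alternatives tried: Id2 lower at day 3, Id3 and Hes1 higher. These alternatives share the same 6 arrays, so this count is no independent evidence. Those that changed only the filter, the variance model or the block leave the log2 difference as it was, so their direction was fixed in advance. The size varied, from -1.26 to -0.079 on the log2 scale for Id2, from 0.28 to 2.26 for Id3 and from 0.036 to 1.20 for Hes1. Id3 was called in 4 of the 37, and Id2 and Hes1 in none (limma).

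**Figure D5:**
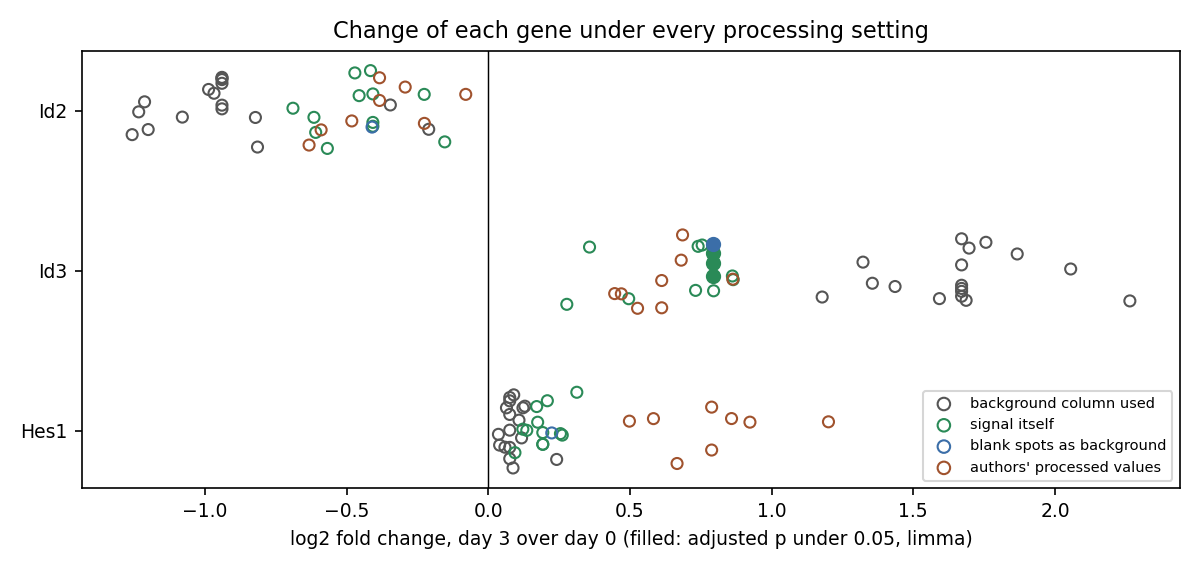
Log2 fold change of day 3 over day 0 for each gene under the main setting and each alternative, coloured by how the background was treated; filled points have a limma adjusted p under 0.05. Id2 lies left of 0 and Id3 and Hes1 right of 0 throughout, and the filled points belong to Id3 with the signal itself or the blank spots as background.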

How the data were processed

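Per the labels' protocols, Cy5 was coupled to amplified amino-allyl RNA. Per the file headers, the deposited array files give a spot median (intensity read at 635 nm) and a background median. The authors also deposited a table of processed intensities, whose scale and background were found by comparison with each array, to within the rounding of the file. Neither headers nor labels name the scanner software.

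The background-corrected log2 values came from limma 3.58.1 under R 4.3.3 (normexp on all spots, offset 50, control spots removed, quantile normalisation, log2). The authors' processed values were used as log2 with no pseudocount. The tests were checked on simulated data. The fit with the background column was planned as the main one. The members and lists were chosen with earlier results of these data known. The lists of BMP, Notch and marker genes could not be used, since 0 of 20174 identifiers matched the RefSeq gene table (GRCr8). Besides the members, the rule named the 2 identifiers most correlated with the mean of their standardised values.

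For the pairing check, deviations of same-numbered arrays from their group means correlated with 0.27, 0.48 and 0.60 in the signal itself and 0.28, 0.41 and 0.58 in the authors' processed values, and with 0.088, 0.14 and 0.24 in the background-corrected values. With a bound of 0.1 for every pair, the numbers were taken as a pairing for the first 2 only, from the data and not from a label. Arrays of unlike number were not compared, so the check does not establish that the arrays were paired. Alternatives changed the treatment of background, the scale between arrays, the filter on dim spots, the variance model, the blocks or the arrays included. The number of arrays limits the precision.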

Additional observations from a re-analysis of the deposited data

How the results depend on the processing

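Over all genes, the background-corrected values gave 4 calls higher and 1 lower at day 3 (limma, adjusted p under 0.05). Leaving the background column out gave 112 higher and 49 lower, or 95 and 42 if the replicate block was added and 159 and 114 if title style was; it gave 72 and 87 with no scaling, 80 and 62 with a common median and 186 and 67 with a common 75th percentile, so that falls outnumbered rises with no scaling. Taking the blank spots as the background for normexp gave 126 and 55, and the authors' processed values gave 266 and 81, or 644 and 553 with the replicate block, and without 1 array 118 to 330 and 15 to 199 (118 and 15 without day 0 number 1, 272 and 199 without day 0 number 2, 174 and 32 without day 3 number 2). In that block fit limma used 1 common variance (28862 degrees of freedom), and all 3 genes had the same SE of 0.357. The counts of 644 and 553 thus do not rest on the spread of each gene. With the background column kept, scaling to the median gave 5 and 4, scaling to the 75th percentile 13 and 3, eBayes with trend and robust options 8 and 1, and a block for title style 2 and 0. The replicate block and the numbered arrays alone, which leave fewer residual degrees of freedom, gave 0 and 0 (limma; unadjusted p under 0.05 for 1347 and for 1149 genes). Without 1 array, the counts ran from 0 to 5 and from 0 to 1, and with the signal itself from 0 to 76 (34 if day 3 number 2 was left out, 14 if the unnumbered one of day 3 was) and from 0 to 19 (9 without day 3 number 2). The common 75th percentile put the median difference of all genes at 0.16. Id3 was called with a log2 difference of 0.79 in the signal itself, alone, with the replicate block and with title style, and of 0.79 with the blank spots as background (limma adjusted p = 0.0443, 0.0470, 0.0375 and 0.0399). Without 1 array, over the 3 kinds of values, the differences were -1.23 to -0.079 for Id2, 0.45 to 2.06 for Id3 and 0.036 to 1.20 for Hes1, with no call. The differences of changes then ran from -2.80 to -0.74 for Id2 minus Id3, from -1.45 to -0.28 for Id2 minus Hes1 and from -0.45 to 2.00 for Id3 minus Hes1. The last was -0.18 in the authors' processed values, and there -0.34 and -0.22 if day 0 number 1 or the unnumbered array of that day was left out and -0.45 and -0.18 if their day 3 counterparts were, but 0.029 and 0.10 if number 2 of day 0 or of day 3 was. The replicate block changed no call of the 3 genes within a kind of values. The authors' processed values with the block or a left-out array, and the signal itself under other scalings, were chosen after seeing the data. The cause of these moves was not tested. Hes1 lay too near the blank spots for a firm statement.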

Other observations

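The factor by which the authors' table scales each array was 0.475 to 0.586 at day 0 and 0.647 to 0.703 at day 3, so it did not overlap between the days, and the median gene signal was 31.7 to 38.9 and 26.4 to 35.8 scanner units. Any gene's change between days in that table includes this step.

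The identifiers whose background-corrected values ran most like the mean of the standardised values of Id2, Id3 and Hes1 over the 6 arrays, among 15434 others, were ENSRNOG00000018408 and ENSRNOG00000017852, both with Pearson r of 0.98. Id2 ran against Id3 and Hes1 between the days, so this mean mixes opposite directions. ENSRNOG00000018408 went from 18.3 ± 1.92 to 17.0 ± 2.89 scanner units, and ENSRNOG00000017852 from 525 ± 101 to 532 ± 95.5 (SD, n = 3). Neither was called (limma adjusted p = 0.981 and 0.960). The signal of ENSRNOG00000018408 lay near the detection limits of 13.9 to 16.9 units. Both r values are the highest of 15434 over only 6 arrays, so they say little about shared behaviour.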
